A study of Mus musculus with 12 samples.

Results

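The 35 genes described here encode the enzymes that remove acetyl groups from histones and other proteins, and the subunits of the complexes that carry these enzymes to chromatin. They were chosen by symbol from a table of 25232 genes. The set holds 11 zinc-dependent deacetylases (Hdac1 to Hdac11), 7 sirtuins (Sirt1 to Sirt7), 4 subunits of the NCoR complex, 5 of the Sin3 and CoREST complexes and 8 of the NuRD complex. All 35 passed the filter on low values (at least 0.5 CPM in at least 3 libraries), as did 15597 genes in all. The data are RNA-seq libraries of whole epididymal white adipose tissue (eWAT, the gonadal fat pad of male mice) from C57BL/6 mice, 12 in all, with 3 biological replicates in each of 4 groups. ND_WT were wild-type mice on Normal Diet (CD in the protocol text) and HFD_WT were wild-type mice on High Fat Diet. ND_TKO and HFD_TKO carried the genotype labelled TET KO, also written TKO, on the same diets. The title of the series places the loss of TET proteins, which oxidise 5-methylcytosine in DNA, in adipocytes. The Cre driver, the deleted exons, the controls' alleles, the age of the mice and the length of feeding are not stated in the labels.

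Histone deacetylases take acetyl groups off lysines, which tightens chromatin and lowers transcription. They fall into zinc-dependent enzymes of class I (Hdac1, Hdac2, Hdac3, Hdac8), class IIa (Hdac4, Hdac5, Hdac7, Hdac9), class IIb (Hdac6, Hdac10) and class IV (Hdac11), and into sirtuins, which consume NAD. Class I enzymes work inside large corepressor complexes: Hdac3 in NCoR, and Hdac1 with Hdac2 in Sin3, CoREST and NuRD. In fat, NCoR and Hdac3 hold back target genes of PPARγ, the master factor of adipocytes, and Sirt3, Sirt4 and Sirt5 act on the enzymes of mitochondria. Tet1 is known to bind Sin3a. Levels are given in CPM (reads scaled to a common library total), and changes as log2 differences on the log2(CPM + 1) scale with their standard error (SE) and an adjusted p-value from limma. A gene was called when that p was under 0.05.

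Recovered library totals lay between 20973139 and 25606629 reads, at which 3 reads, the limit a count of 0 allows, correspond to 0.117 to 0.143 CPM. This limit covers counting error only. The tissue was checked against its markers: the summed level of 14 adipocyte markers was 46935 to 57450 CPM in ND_WT, 45974 to 51496 in ND_TKO, 20173 to 21449.6 in HFD_WT and 32823 to 35797 in HFD_TKO, and none was at 0. For the same groups, 12 macrophage markers summed to 990.5 to 1538, 839 to 1183, 6908 to 7666 and 1590.5 to 1817 CPM. Of the 6 markers of epididymal epithelium, 3 were at 0 in every library and the 6 together stayed at or under 3.43 CPM. The first principal component over all tested genes held 64.3% of the variance. On it HFD_WT lay at 72.6 to 72.9 and all other libraries at -44.0 to 0.462. That HFD_WT lies apart is thus not particular to the 35 genes. On the second principal component, with 15.8% of the variance, ND_WT replicate 3 lay at -6.21, apart from the other ND_WT libraries at -32.0 and -32.6. HFD_TKO replicate 1 lay at 44.2, against 18.5 and 26.2 for the other HFD_TKO libraries, and its 6 mesothelium markers summed to 41.7 CPM, against 193 and 177. Levels of the Tet genes cannot check the genotype, because a gene-level value takes in whatever exons remain and whole fat holds many cell types. Tet1 lay at 0.415 to 1.48 CPM in ND_WT, 2.22 to 2.98 in ND_TKO, 0.841 to 0.996 in HFD_WT and 1.65 to 3.07 in HFD_TKO. Tet2 lay at 14.7 to 23.6, 15.1 to 23.5, 13.7 to 17.8 and 9.54 to 13.4 CPM in the same order, and Tet3 at 35.5 to 42.0, 40.0 to 49.1, 64.6 to 71.7 and 58.9 to 62.4. Tet1 was called higher in TKO on both diets, and neither Tet2 nor Tet3 was called between genotypes on either diet.

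RefSeq promoter sequences (build GRCm38.p6) were at hand for 31 of the 35 genes, as 42 windows of the 250 bases before a transcript start. Hdac1, Hdac3, Hdac10 and Mta3 were not matched. TET enzymes act on the cytosine of CG pairs, so CG pairs were counted. The median was 17.5 CG pairs in the 42 windows and 6 in the 32851 windows of all genes. These 32851 windows were not limited to the tested genes, and a gene can have several. The difference is thus not read as particular to the set. Hdac9, the class IIa gene with the largest changes below, had a window with no CG pair at its outer start (chr12:34917096-34917345, minus strand) and 2 at an inner start within the gene (chr12:34528890-34529139, minus strand). Of all windows, 7.87% held no CG pair and 37.8% held 3 or fewer. For contrast, the stretches before Tbl1xr1 (chr3:22076402-22076651, plus strand), Rcor1 (chr12:111039117-111039350, plus strand) and Sirt5 (chr13:43365285-43365495, plus strand) are shown, with 15, 23 and 9 CG pairs. These belong to genes that were called higher (Tbl1xr1, Rcor1) or lower (Sirt5) with High Fat Diet in WT. The genes shown are a choice. Tbl1x, called higher in TKO on both diets, had 36 CG pairs. Ncor1, called in no comparison on the CPM scale, had windows with 2 and 34. A link between CG pairs and changes was not tested. The stretches of Rcor1 and Sirt5 stop where an annotated exon begins, and their full windows of 250 bases held 25 and 13 CG pairs. Capitals mark the CG pairs.
Hdac9 outer start: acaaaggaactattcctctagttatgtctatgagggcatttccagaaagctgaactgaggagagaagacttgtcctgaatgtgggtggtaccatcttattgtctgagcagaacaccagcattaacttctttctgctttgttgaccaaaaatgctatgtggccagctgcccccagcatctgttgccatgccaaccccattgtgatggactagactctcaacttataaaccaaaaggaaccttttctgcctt
Hdac9 inner start: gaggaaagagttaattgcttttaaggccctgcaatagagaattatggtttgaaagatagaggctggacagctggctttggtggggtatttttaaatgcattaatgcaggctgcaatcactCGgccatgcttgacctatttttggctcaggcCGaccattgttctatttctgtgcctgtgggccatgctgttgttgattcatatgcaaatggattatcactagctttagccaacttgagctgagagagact
Tbl1xr1: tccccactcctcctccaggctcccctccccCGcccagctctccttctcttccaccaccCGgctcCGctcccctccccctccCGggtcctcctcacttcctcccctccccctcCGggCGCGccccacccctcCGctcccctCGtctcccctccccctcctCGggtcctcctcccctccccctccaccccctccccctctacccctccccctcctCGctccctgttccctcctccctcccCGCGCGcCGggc
Rcor1: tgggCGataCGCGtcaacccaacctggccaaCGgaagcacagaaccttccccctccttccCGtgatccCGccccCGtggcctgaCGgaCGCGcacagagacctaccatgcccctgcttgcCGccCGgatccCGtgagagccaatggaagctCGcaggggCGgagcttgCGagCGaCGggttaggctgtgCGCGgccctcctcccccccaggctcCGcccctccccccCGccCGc
Sirt5: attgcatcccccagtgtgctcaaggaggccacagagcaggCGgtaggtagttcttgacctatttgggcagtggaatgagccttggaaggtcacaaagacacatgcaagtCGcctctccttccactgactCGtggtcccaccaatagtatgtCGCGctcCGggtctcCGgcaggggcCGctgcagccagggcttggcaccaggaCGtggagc
A set of 5 motifs was searched on both strands: CG itself, GGGCGG (GC box), TCAAGGTCA (estrogen-related receptor element), the palindromic NRF1 site and the MEF2 core. The GC box and the NRF1 site hold CG pairs and so overlap with that search. A GC box was in 30 of the 42 windows, against 32.7% of all windows of the same length. Again all windows were not limited to the tested genes. The MEF2-like frame was in 3 windows, of Hdac2, Hdac5 and the inner Hdac9 start, against 3.20% of all windows. In the inner Hdac9 window it read ctagctttag, with G and C among the free bases. The NRF1 site was in 1 window (Sirt6, 0.782% of all) and the estrogen-related receptor element in none of the 42 (0.387% of all). A match describes letters and is not a binding site.

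Per length of exon, the histone-binding Rbbp7, a subunit of Sin3 and NuRD, was the most abundant of the 35. It led with a mean over all libraries of 41.6 CPM per kb, followed by Chd4, the NuRD remodelling motor, at 27.3, Hdac1 at 22.4 and the NuRD scaffold Mta2 at 20.01. At the other end stood Hdac8 at 1.42, Hdac4 at 0.982 and Hdac9 at 0.837 CPM per kb. Mitochondrial sirtuins were low as well, with Sirt4 at 2.98, Sirt3 at 2.04 and Sirt5 at 1.49 CPM per kb. Summed over the 35 genes, the level was 1741 to 1949 CPM in ND_WT, 1655 to 1821 in ND_TKO, 1866 to 1936 in HFD_WT and 1562 to 1791 in HFD_TKO. On the CPM scale the ranges of ND_WT, ND_TKO and HFD_TKO overlap, and HFD_WT lies above both TKO groups. This order depends on the scaling and is not read as a difference. Factors from trimmed-mean scaling were 1.07 to 1.12 in HFD_WT and 0.914 to 0.986 in ND_TKO.

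**Figure D1:**
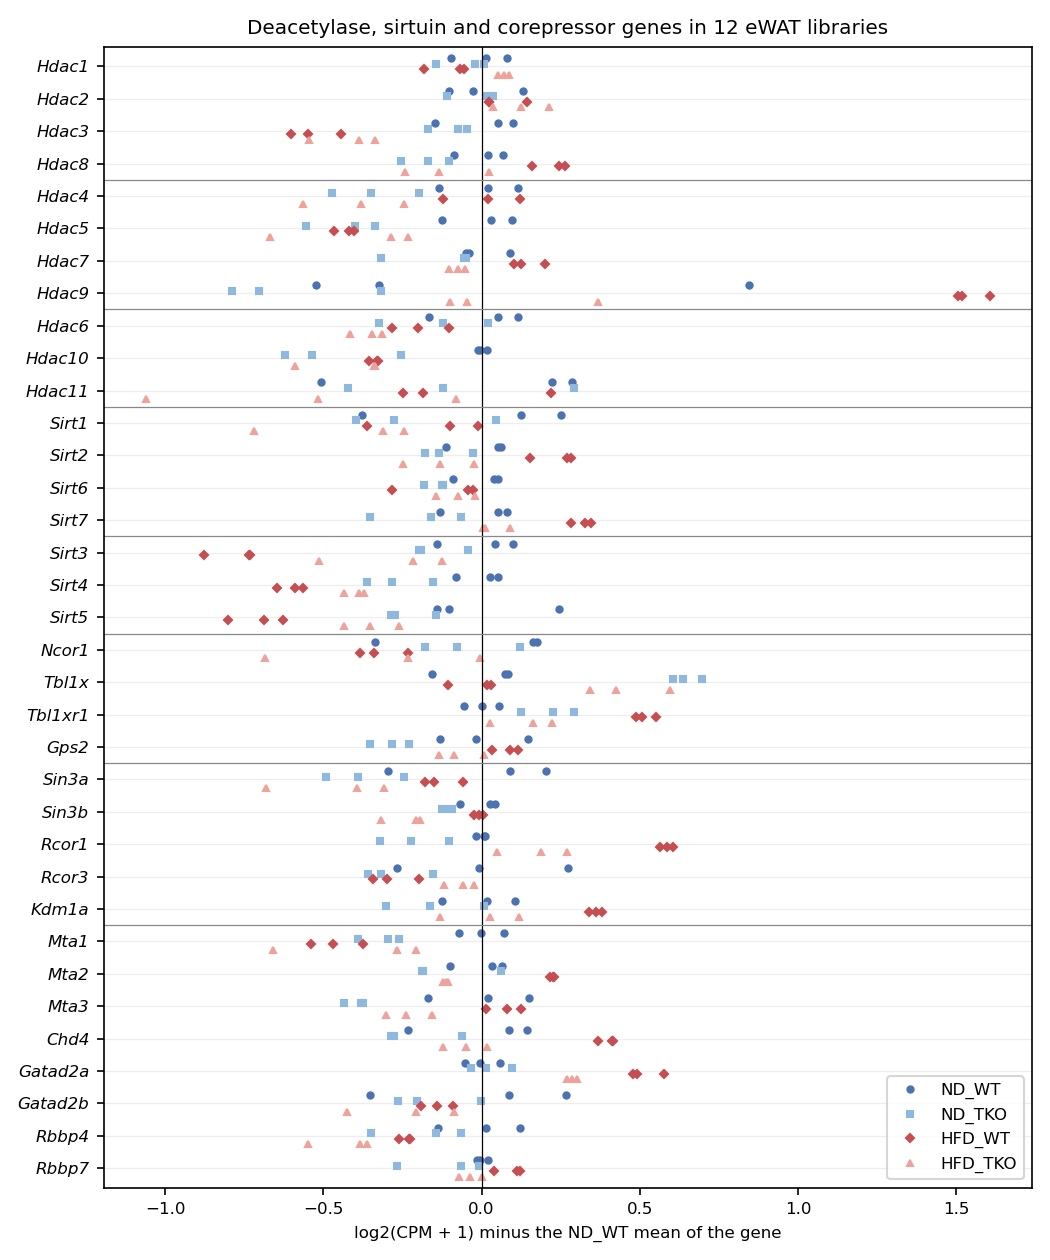
Horizontal axis, log2(CPM + 1) of a gene in a library minus its mean in ND_WT; vertical axis, the 35 genes, grouped by role. Each point is 1 of the 12 libraries, with colour and shape for its group, and Hdac9 has the widest range, with HFD_WT at the right.

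TET knockout on Normal Diet was compared with wild type to ask what loss of the enzymes does in fat on that diet. In this comparison 4 of the 35 genes were called (background over all tested genes 5.7%), 1 higher (background 2.16%) and 3 lower (3.54%). Tbl1x, a WD-repeat subunit of the NCoR complex, rose, and Hdac10, Hdac5 and Mta3 fell. With trimmed-mean (TMM) scaling, the split was 2 higher (background 3.19%) and 2 lower (2.72%), with Tbl1xr1 added and Hdac5 lost. The median change of the 35 was -0.16, and that of all tested genes -0.06. The groups did not overlap for 15 of the 35 (background 23.8%), 2 of them higher and 13 lower in TKO. Shares by direction were not computed over all genes. Such overlap counts use CPM without TMM scaling, here and below, so their split by direction is not read as a result. All other values of the 31 uncalled genes lay between -0.60 (Hdac9) and 0.21 (Tbl1xr1) on the log2 scale. The count rested on single libraries: it was 1 without ND_WT replicate 1 or ND_TKO replicate 3, 2 without ND_WT replicate 2 or ND_TKO replicate 1, and 7 without ND_WT replicate 3. It was also 1 (Tbl1x) when only these groups were fitted.

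On High Fat Diet the same genotype comparison called 17 of the 35 genes (background 46.7%), 3 higher (15.2%) and 14 lower (31.6%) in TKO. Higher were Tbl1x and the mitochondrial sirtuins Sirt3 and Sirt5. Lower were 3 of the 4 class IIa deacetylases, Hdac8, Sirt2, Sirt7, Tbl1xr1, Sin3b, both Rcor1 and Kdm1a of CoREST, and 4 of the 8 NuRD genes. The share of the 35 called, 48.6%, was near the background. TMM scaling moved the median change of all tested genes from -0.10 to 0.01, and gave 7 higher (background 22.7%) and 8 lower (24.7%). Sin3b, Gatad2a, Mta3, Hdac7, Sirt7 and Hdac8 were then not called, and Hdac1, Hdac3, Rcor3 and Sirt4 were called higher. The median change of the 35 on the CPM scale was -0.19. Without HFD_TKO replicate 1 the comparison called 15, 4 higher and 11 lower. For 25 of the 35 the groups did not overlap (background 59.6%), 6 higher and 19 lower (shares by direction not computed). All 12 macrophage markers and 6 of 8 stromal markers were called lower in TKO on this diet, and 11 of 14 adipocyte markers higher. Their part in the changes of the 35 genes was not tested, and in bulk tissue fewer cells of a type and less RNA per cell cannot be told apart.

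High Fat Diet in WT mice was the comparison with the widest spread among the 35, from -0.78 to 1.54 on the log2 scale. It called 17 genes (background 58.1%), 9 higher (37.8%) and 8 lower (20.3%). Hdac9 and 8 genes of NCoR, CoREST, NuRD and the nuclear or cytosolic sirtuins rose, and all 3 mitochondrial sirtuins, Hdac3, Hdac5, Hdac10, Mta1 and Rbbp4 fell. TMM scaling moved the median change of all tested genes from 0.13 to -0.005 and gave 5 higher (background 29.2%) and 14 lower (28.2%). Sirt2, Sirt7, Mta2 and Kdm1a were then not called, and Hdac1, Hdac6, Ncor1, Rcor3, Sin3b and Sirt6 were called lower. The median change of the 35 was -0.02. For 20 genes the groups did not overlap (background 65.4%), 12 higher and 8 lower (shares by direction not computed). All 12 macrophage, all 8 lipid-associated macrophage and all 9 T and NK cell markers were called higher, and 13 of 14 adipocyte markers lower. The part of these shifts in the changes of the 35 genes was not tested.

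High Fat Diet in TKO mice called 3 genes (background 22.1%), 2 higher (16.2%) and 1 lower (5.9%). Rcor1 and Gatad2a rose and Hdac3 fell, and the same direction was called for each of the 3 in WT. The median change of the 35 was -0.01 and that of all tested genes 0.07. For 13 genes the groups did not overlap (background 39.4%), 8 higher and 5 lower (shares by direction not computed). With TMM scaling 5 genes were called, Rcor1 higher (background 9.76%) and Hdac3, Rbbp4, Sin3b and Tbl1x lower (8.93%). Same-numbered TKO libraries deviated together (r = 0.39, 0.56 and 0.12). A fit of the TKO groups with the replicate number as a block called 6, 3 higher (19.1% of the genes it tested) and 3 lower (9.13%). It added Hdac9, Hdac11 and Rbbp4, and as the block was chosen from these same data, the added calls are not separate support. The count was 1 without ND_TKO replicate 3, 2 without HFD_TKO replicate 1 and 5 without ND_WT replicate 3. Of 12 macrophage markers 10 were called higher, and of 14 adipocyte markers 9 lower and 1 higher.

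The genotype by diet interaction, the change with TKO on High Fat Diet minus that on Normal Diet, was called for 7 of the 35 (background 28.7%), 5 positive (9.94%) and 2 negative (18.8%). Positive were Sirt3, Sirt5, Sirt4, Rcor3 and Hdac5, and negative were Tbl1xr1 and Gatad2a. TMM scaling gave 8 positive (background 12.7%) and 1 negative (16.2%), adding Hdac1, Hdac10 and Mta1 and losing Gatad2a. Of the markers, 10 of 14 for adipocytes were called positive, and 11 of 12 for macrophages, all 8 for lipid-associated macrophages and all 9 for proliferating cells negative. Their part in the interaction of the 7 genes was not tested. With the replicate number as a block 4 were called, and leaving out single libraries gave 3 to 7. The median of the 35 was -0.01, and that of all tested genes -0.06.

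**Figure D2:**
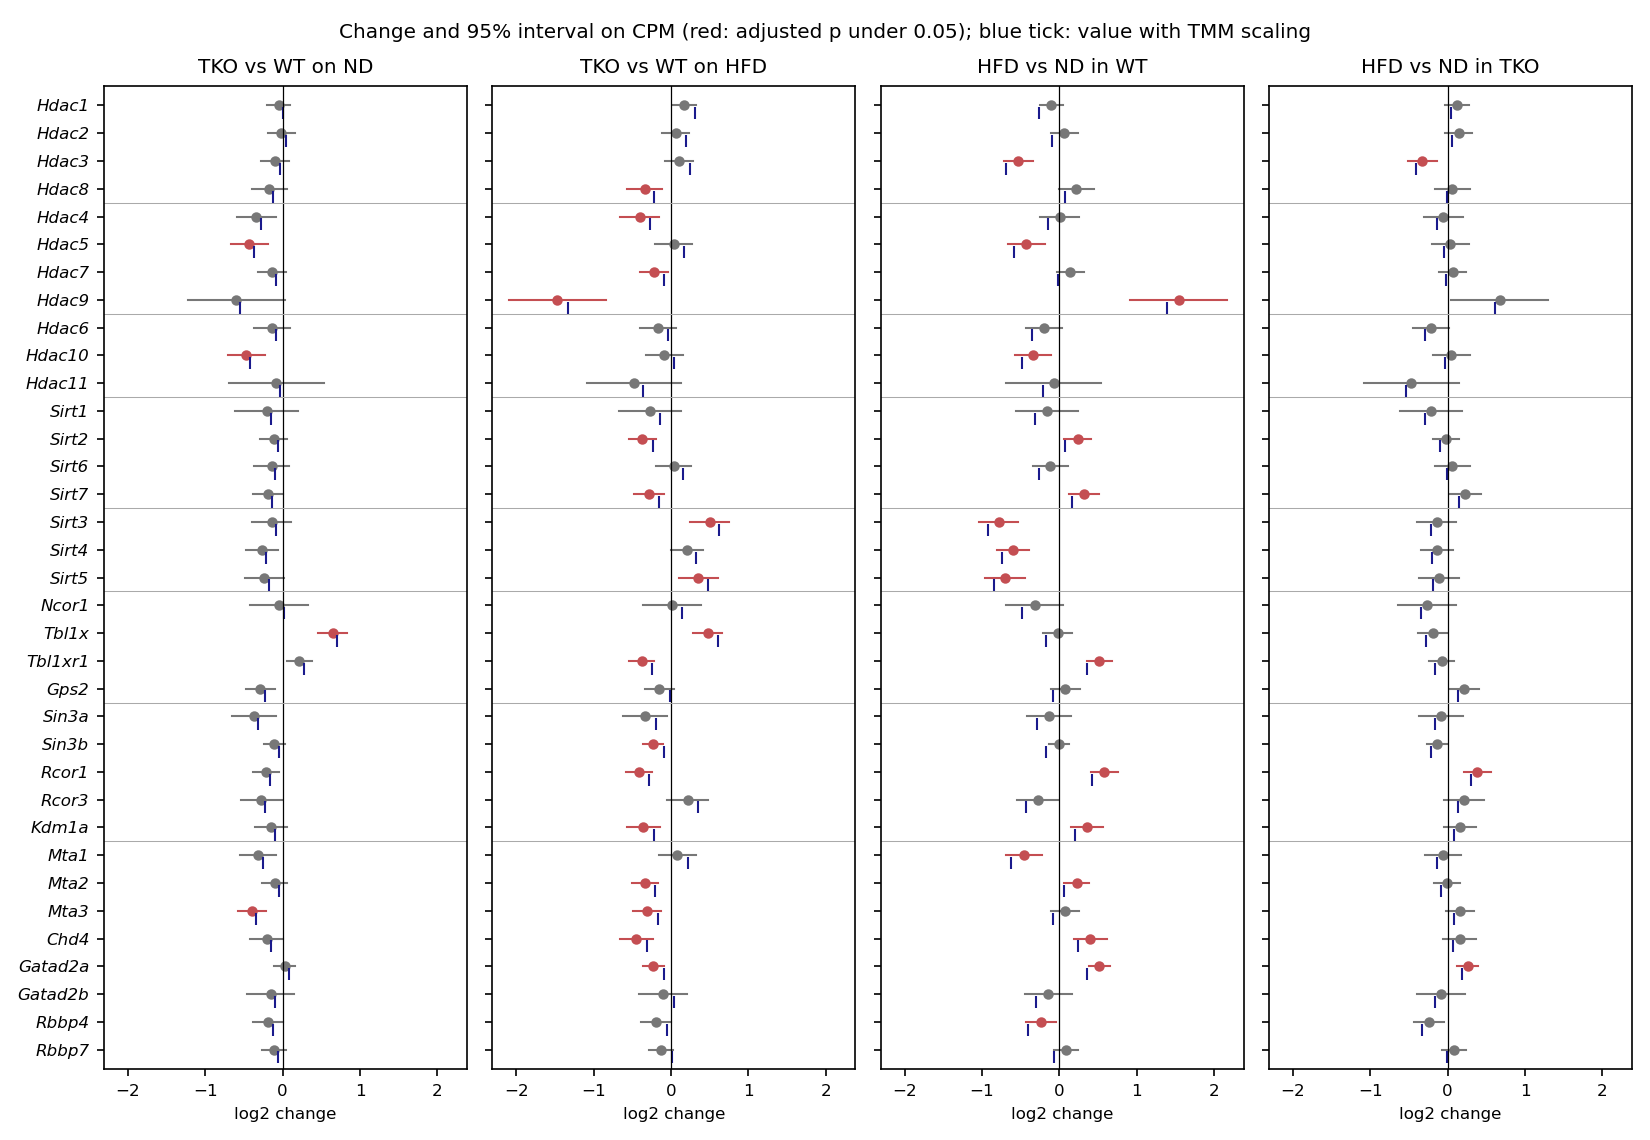
Change of each of the 35 genes in the 4 pairwise comparisons (horizontal axis, log2 change on the log2(CPM + 1) scale; points with 95% confidence intervals), in red where called by limma, with the value under TMM scaling as a blue tick. Hdac9 lies farthest from 0, at -1.47 (TKO on High Fat Diet) and 1.54 (High Fat Diet in WT).

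Among the class I deacetylases, the catalytic cores of the corepressor complexes, Hdac3 fell with High Fat Diet in both genotypes and the paralogs Hdac1 and Hdac2 were not called in any comparison on the CPM scale. Hdac3, the enzyme of NCoR, was at 82.3, 79.6 and 69.3 CPM for ND_WT, 68.2, 74.5 and 72.9 for ND_TKO, 52.3, 50.4 and 56.3 for HFD_WT and 52.3, 58.6 and 60.6 for HFD_TKO. All High Fat Diet libraries lay below all Normal Diet libraries, between 50.4 and 60.6 CPM against 68.2 to 82.3. The diet difference was called in WT (log2 change -0.53, SE 0.08, adjusted p = 2.0e-04) and in TKO (log2 change -0.33, SE 0.08, adjusted p = 0.018), and the interaction was not (0.20, adjusted p = 0.23). In TKO the call ended without ND_TKO replicate 2 or 3 or HFD_TKO replicate 1 (adjusted p = 0.053, 0.064 and 0.06). Hdac1 was measured at 79.1, 73.2 and 82.9 CPM for ND_WT, 70.7, 78.6 and 77.1 for ND_TKO, 75.4, 68.9 and 74.6 for HFD_WT and 81.2, 82.2 and 83.2 for HFD_TKO. The highest and lowest means, 82.2 ± 1.01 (HFD_TKO) and 72.9 ± 3.56 CPM (HFD_WT; SD, n = 3), differed without overlap (log2 change 0.17, SE 0.07, adjusted p = 0.06). With TMM scaling that difference was called (0.31, adjusted p = 0.0021), as was the diet difference in WT (-0.26, adjusted p = 0.0043). Hdac2 had levels of 54.0, 60.4 and 51.3 CPM for ND_WT, 51.0, 56.5 and 55.8 for ND_TKO, 61.0, 56.0 and 56.0 for HFD_WT and 64.0, 56.5 and 60.2 for HFD_TKO. Its 4 groups overlapped, and on Normal Diet the genotype difference was -0.02, 95% confidence interval -0.19 to 0.16, adjusted p = 0.93. Hdac8, an enzyme that works outside the large complexes, had means of 6.91, 6.00, 8.22 and 6.30 CPM in ND_WT, ND_TKO, HFD_WT and HFD_TKO, and fell in TKO on High Fat Diet (-0.34, adjusted p = 0.018). That call ended in 7 of 22 alternatives, among them TMM scaling (-0.22, adjusted p = 0.092) and leaving out HFD_WT replicate 1, HFD_WT replicate 3 or HFD_TKO replicate 1 (adjusted p = 0.061, 0.054 and 0.06).

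Class IIa deacetylases shuttle between cytoplasm and nucleus, bind MEF2 factors and have little catalytic activity of their own. Hdac9 (chromosome 12, 34047580 to 34917095 of GRCm38) was the only one of the 35 called with a change of at least 2-fold, in the 2 comparisons that use HFD_WT. Such calls made up 1.15% of all tested genes for TKO on Normal Diet, 11.9% for TKO on High Fat Diet, 17.2% for High Fat Diet in WT, 2.21% for High Fat Diet in TKO and 10.9% for the interaction. Its levels were 6.39, 5.44 and 15.6 CPM for ND_WT, 6.41, 4.68 and 4.36 for ND_TKO, 25.5, 25.3 and 27.1 for HFD_WT and 10.9, 7.63 and 7.95 for HFD_TKO. The HFD_WT libraries (25.3 to 27.1 CPM) lay above all 9 others, and ND_WT replicate 3, at 15.6 CPM, was the next highest. Hdac9 rose with High Fat Diet in WT (log2 change 1.54, SE 0.29, adjusted p = 6.5e-04; 2.84 times by group means) and was lower in TKO than in WT on that diet (log2 change -1.47, SE 0.29, adjusted p = 0.0013; 0.340 times). Both calls held under all 22 alternatives. On Normal Diet the genotype difference was -0.60 (adjusted p = 0.24), and -0.18 (adjusted p = 0.53) without ND_WT replicate 3. Without that library, the interaction went from -0.87 (adjusted p = 0.14) to -1.29 (adjusted p = 0.0015), and the diet difference in TKO, 0.68 with or without it, went from an adjusted p of 0.11 to 0.0079. In the TKO groups fitted with the replicate block, which was chosen from these data, that p was 0.0063.

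Hdac5 stood at 74.2, 66.6 and 77.8 CPM for ND_WT, 57.4, 49.2 and 54.9 for ND_TKO, 52.4, 54.2 and 54.8 for HFD_WT and 45.4, 59.4 and 61.7 for HFD_TKO. The ND_WT libraries (66.6 to 77.8 CPM) lay above all 9 others (45.4 to 61.7 CPM). It fell in TKO on Normal Diet (log2 change -0.43, SE 0.11, adjusted p = 0.043) and with High Fat Diet in WT (log2 change -0.43, SE 0.11, adjusted p = 0.0053). The first call ended in 16 of 22 alternatives, with adjusted p between 0.052 and 0.13, and the interaction (0.46, adjusted p = 0.043) ended in 11 of 21. Hdac4 fell in TKO on High Fat Diet, from a mean of 17.7 to 13.1 CPM (-0.40, adjusted p = 0.013; 0.056 without HFD_WT replicate 3), and on Normal Diet its difference was -0.34 (adjusted p = 0.11). Hdac7 went from 44.2 to 37.8 CPM in the same comparison on High Fat Diet (-0.22, adjusted p = 0.044), a call that ended in 13 of 22 alternatives, TMM scaling among them (-0.09, adjusted p = 0.38). The summed level of the class was 128 to 152 CPM in ND_WT, 105 to 115 in ND_TKO, 138 to 147 in HFD_WT and 105 to 121 in HFD_TKO. On both diets the TKO libraries lay below the WT libraries in this sum.

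**Figure D3:**
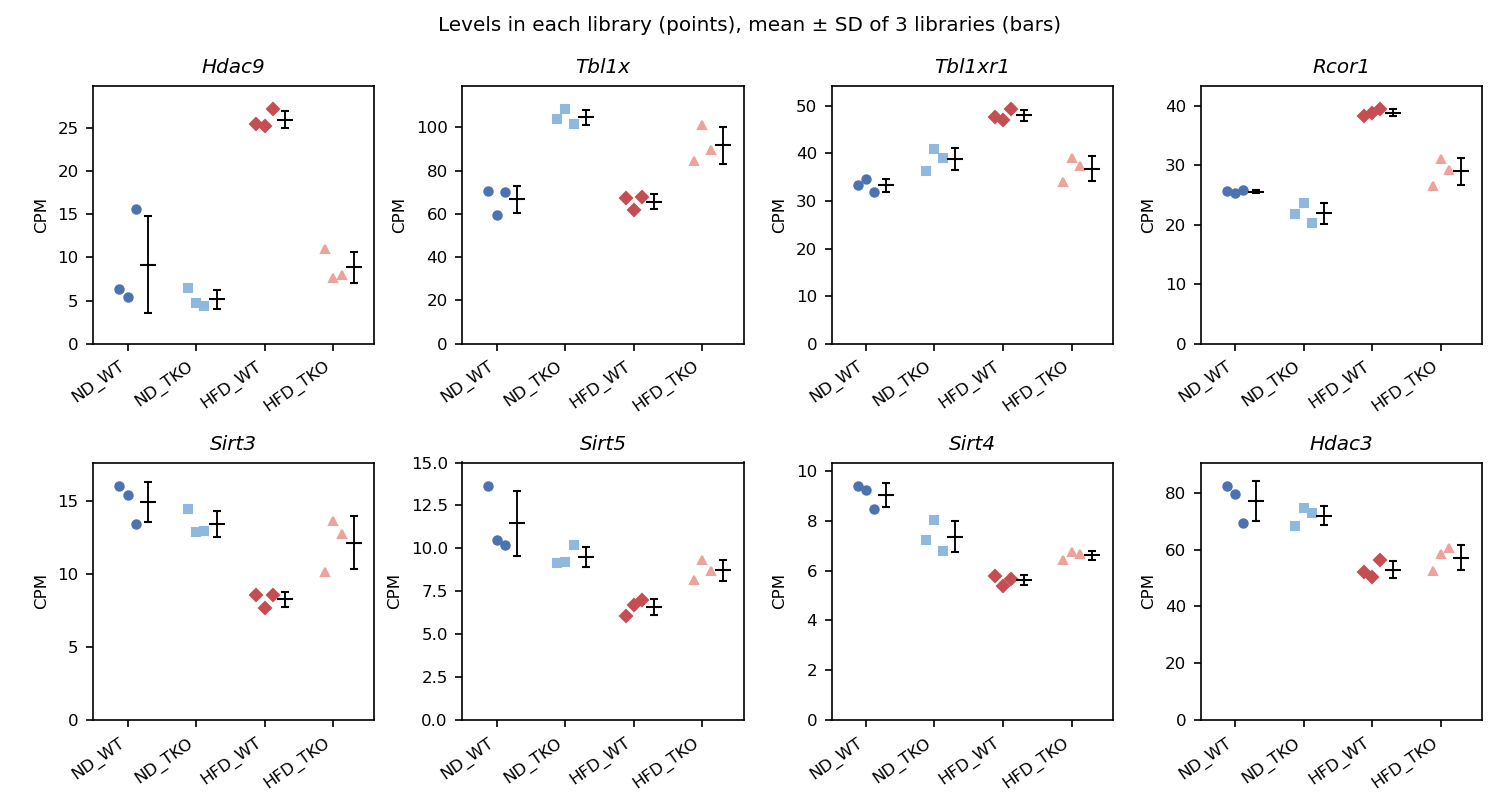
Level of selected genes in CPM (vertical axis from 0) in each library (points) of the 4 groups, with the group mean and SD. Hdac9 stands at 26.0 ± 1.03 CPM in HFD_WT against means of 5.15 to 9.14 CPM elsewhere, and Tbl1x at 105 ± 3.34 and 91.6 ± 8.47 CPM in the TKO groups against 66.7 ± 6.24 and 65.6 ± 3.38 in the WT groups.

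Of class IIb and class IV, Hdac10, a polyamine deacetylase, was highest in ND_WT. Its levels were 17.1, 16.8 and 16.7 CPM for ND_WT, 11.4, 14.0 and 10.6 for ND_TKO, 13.2, 13.3 and 13.0 for HFD_WT and 10.9, 13.1 and 13.2 for HFD_TKO. ND_WT (16.7 to 17.1 CPM) lay above all 9 other libraries, which spanned 10.6 to 14.0 CPM. It fell in TKO on Normal Diet (log2 change -0.47, SE 0.11, adjusted p = 0.027) and with High Fat Diet in WT (log2 change -0.34, SE 0.11, adjusted p = 0.018). The first call ended in a fit of these 2 groups alone (adjusted p = 0.1) and without ND_WT replicate 1 or 2 or ND_TKO replicate 1 or 3 (0.07 to 0.098). The second missed the threshold without ND_WT replicate 1 (0.051) or HFD_WT replicate 3 (0.05). Hdac6, the tubulin deacetylase, was called in no comparison, with group means between 15.4 and 20.1 CPM. Hdac11, which removes long fatty acyl groups, was at 8.39, 4.43 and 7.99 CPM for ND_WT, 4.75, 8.43 and 6.09 for ND_TKO, 5.78, 5.49 and 7.96 for HFD_WT and 2.698, 6.29 and 4.39 for HFD_TKO. Libraries of each group overlapped with those of every other, and the 95% confidence interval of its genotype difference on High Fat Diet ran from -1.09 to 0.13, so changes of this size were not resolved.

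Of the 4 nuclear or cytosolic sirtuins, Sirt2 and Sirt7 were called on the CPM scale and Sirt1 and Sirt6 were not. Together the 4 genes summed to 115 to 131 CPM in ND_WT, 107 to 118 in ND_TKO, 138 to 143 in HFD_WT and 103 to 120.2 in HFD_TKO. Sirt1, which deacetylates PPARγ and other regulators, was measured at 25.8, 28.3 and 17.9 CPM for ND_WT, 19.3, 24.4 and 17.7 for ND_TKO, 23.4, 18.1 and 21.9 for HFD_WT and 14.0, 18.8 and 19.8 for HFD_TKO. The groups overlapped throughout, and the diet difference in WT was -0.16, 95% confidence interval -0.56 to 0.24, adjusted p = 0.49. Sirt2, mainly cytosolic, and Sirt7, of the nucleolus, rose with High Fat Diet in WT (0.24, adjusted p = 0.023, and 0.32, adjusted p = 0.0097) and were lower in TKO than in WT on that diet (-0.37, adjusted p = 0.0024, and -0.28, adjusted p = 0.022). With TMM scaling the diet calls of both were lost (0.08, adjusted p = 0.46, and 0.16, adjusted p = 0.13), as was the genotype call of Sirt7 (-0.15, adjusted p = 0.18). The diet call of Sirt2 also ended without ND_WT replicate 3 or HFD_WT replicate 2 or 3 (adjusted p = 0.073 to 0.079), and the genotype call of Sirt7 without HFD_WT replicate 1 or 2 or HFD_TKO replicate 1 or 3 (0.054 to 0.07). Sirt6, a telomere and chromatin sirtuin, had means between 5.92 and 6.65 CPM and was called in no comparison.

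All 3 mitochondrial sirtuins fell with High Fat Diet in WT. Their summed level was 32.1 to 39.1 CPM in ND_WT, 29.9 to 30.8 in ND_TKO, 19.7 to 21.3 in HFD_WT and 24.7 to 29.7 in HFD_TKO. None of these ranges overlapped on the CPM scale, though HFD_TKO (up to 29.7) came close to ND_TKO (from 29.9). The sums were not TMM-scaled, so the order of ND_WT, ND_TKO and HFD_TKO is not read as a difference. How often other sums separate this way was not computed. Sirt3 (chromosome 7, 140863666 to 140882309), the main mitochondrial deacetylase, had levels of 16.0, 15.4 and 13.4 CPM for ND_WT, 14.4, 12.9 and 12.9 for ND_TKO, 8.55, 7.66 and 8.57 for HFD_WT and 10.1, 13.6 and 12.7 for HFD_TKO. The HFD_WT libraries (7.66 to 8.57 CPM) lay below all 9 others. Sirt3 fell with High Fat Diet in WT (log2 change -0.78, SE 0.12, adjusted p = 1.2e-04), was higher in TKO than in WT on that diet (log2 change 0.50, SE 0.12, adjusted p = 0.004), and had a positive interaction (log2 change 0.64, SE 0.16, adjusted p = 0.012). These 3 calls were made by all 5 tests run and held under every alternative. The gene shares 5.73% of its exonic bases with Psmd13 and 7.0% with Ric8a on the opposite strand, and strand use in counting is not stated.

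Sirt4, which acts as a lipoamidase and ADP-ribosyltransferase, stood at 9.39, 9.22 and 8.49 CPM for ND_WT, 7.25, 8.02 and 6.80 for ND_TKO, 5.78, 5.399 and 5.67 for HFD_WT and 6.42, 6.75 and 6.67 for HFD_TKO. Again the HFD_WT libraries (up to 5.78 CPM) lay below all 9 others. It fell with High Fat Diet in WT (log2 change -0.60, SE 0.09, adjusted p = 1.9e-04) and had a positive interaction (0.47, adjusted p = 0.021), which missed the threshold without ND_WT replicate 1 or HFD_WT replicate 2 (adjusted p = 0.052 in both). The genotype difference on High Fat Diet was 0.20 (adjusted p = 0.099), and 0.32 (adjusted p = 0.01) with TMM scaling. Sirt5, a desuccinylase and demalonylase, was at 13.6, 10.5 and 10.2 CPM for ND_WT, 9.14, 9.22 and 10.2 for ND_TKO, 6.09, 6.68 and 7.01 for HFD_WT and 8.14, 9.33 and 8.68 for HFD_TKO. Its HFD_WT libraries (6.09 to 7.01 CPM) too were below all others. Sirt5 fell with High Fat Diet in WT (log2 change -0.70, SE 0.12, adjusted p = 2.8e-04), was higher in TKO on that diet (0.36, adjusted p = 0.026) and had a positive interaction (0.59, adjusted p = 0.019). The genotype call ended without HFD_WT replicate 1 or 2 or HFD_TKO replicate 2 or 3 (adjusted p = 0.057 to 0.096), and the interaction without HFD_WT replicate 1 (0.054). In TKO the diet differences of the 3 genes were -0.14, -0.13 and -0.11, none of them called. The adipocyte marker sum moved along with this pattern, lowest in HFD_WT and between in HFD_TKO, and its part was not tested.

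Of the NCoR subunits, Tbl1x was higher in TKO on both diets. Tbl1x (chromosome X, 77511013 to 77662983) and Tbl1xr1 (chromosome 3, 22076652 to 22216594) encode related WD-repeat proteins that exchange corepressors for coactivators. Tbl1x was measured at 70.4, 59.5 and 70.1 CPM for ND_WT, 104, 108 and 102 for ND_TKO, 67.3, 61.7 and 67.9 for HFD_WT and 84.5, 101 and 89.5 for HFD_TKO. Every TKO library (84.5 to 108 CPM) lay above every WT library (59.5 to 70.4 CPM). Tbl1x rose in TKO on Normal Diet (log2 change 0.65, SE 0.09, adjusted p = 0.0015; 1.57 times by group means) and on High Fat Diet (log2 change 0.47, SE 0.09, adjusted p = 7.8e-04; 1.40 times), and both calls held under all 22 alternatives. Tbl1xr1 had levels of 33.3, 34.6 and 32.0 CPM for ND_WT, 36.4, 41.0 and 39.1 for ND_TKO, 47.8, 47.1 and 49.3 for HFD_WT and 33.9, 39.0 and 37.4 for HFD_TKO. The HFD_WT libraries (47.1 to 49.3 CPM) lay above all others, and ND_WT (32.0 to 34.6 CPM) lay below ND_TKO. It rose with High Fat Diet in WT (log2 change 0.52, SE 0.07, adjusted p = 8.9e-05), was lower in TKO on that diet (log2 change -0.38, SE 0.07, adjusted p = 0.0012), and had a negative interaction (log2 change -0.59, SE 0.10, adjusted p = 0.0014) that held under all 21 alternatives. On Normal Diet its genotype difference was 0.21 (adjusted p = 0.11), and 0.27 (adjusted p = 0.031) with TMM scaling.

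Ncor1, the scaffold of the complex, stood at 214, 216 and 151 CPM for ND_WT, 181, 208 and 169 for ND_TKO, 151, 146 and 163 for HFD_WT and 119, 191 and 163 for HFD_TKO. Its groups overlapped in every comparison and no change was called, though with TMM scaling it was called lower with High Fat Diet in WT (-0.48, adjusted p = 0.018). Gps2, a subunit that limits inflammatory genes, was called in no comparison, with means of 24.7, 19.998, 26.1 and 23.4 CPM in ND_WT, ND_TKO, HFD_WT and HFD_TKO. Without ND_WT replicate 3 its genotype difference on Normal Diet was called (-0.35, adjusted p = 0.022).

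Ratios within a library do not depend on library scaling, and they were examined after the single genes had been seen, as a description with no test. Of 12 pairs, 6 had HFD_WT apart from all 9 other libraries, and 4 of these, chosen after their values were seen, are given. The share among other pairs of genes was not computed, so the 6 of 12 is not read as particular to these pairs. Hdac1 to Hdac2 (1.21 to 1.62 over all libraries) and Sin3a to Sin3b (0.66 to 0.96) overlapped between the groups of every comparison. The level of Tbl1x divided by that of Tbl1xr1 was 2.11, 1.72 and 2.19 for ND_WT, 2.86, 2.64 and 2.60 for ND_TKO, 1.41, 1.31 and 1.38 for HFD_WT and 2.49, 2.59 and 2.39 for HFD_TKO. All TKO libraries (2.39 to 2.86) lay above all WT libraries (1.31 to 2.19), and HFD_WT was the lowest group. Rcor1 divided by Rcor3 was 1.05, 0.846 and 1.28 for ND_WT, 1.12, 1.08 and 1.07 for ND_TKO, 1.80, 2.03 and 1.996 for HFD_WT and 1.18, 1.32 and 1.21 for HFD_TKO. HFD_WT (1.80 to 2.03) lay above all others. Hdac9 divided by Hdac7 was 0.165, 0.141 and 0.366 for ND_WT, 0.167, 0.121 and 0.137 for ND_TKO, 0.584, 0.587 and 0.589 for HFD_WT and 0.294, 0.198 and 0.210 for HFD_TKO, with HFD_WT again above the rest. Sirt3 divided by Sirt2 was 0.211, 0.202 and 0.198 for ND_WT, 0.201, 0.200 and 0.194 for ND_TKO, 0.105, 0.086 and 0.097 for HFD_WT and 0.165, 0.189 and 0.190 for HFD_TKO. The Normal Diet libraries of both genotypes were within 0.194 to 0.211, HFD_TKO was slightly lower and HFD_WT lowest.

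**Figure D4:**
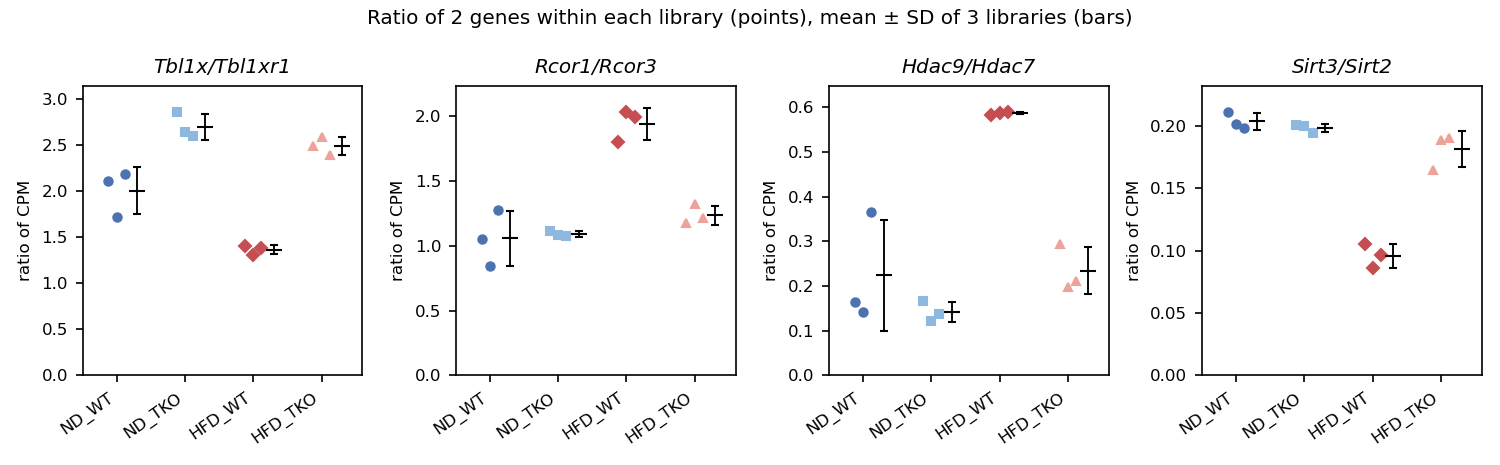
Ratio of CPM between paired genes in each library (points) of the 4 groups, with the mean and SD beside them; the vertical axis is linear and starts at 0. The Tbl1x to Tbl1xr1 ratio has means of 2.01 ± 0.254 (ND_WT), 2.699 ± 0.139 (ND_TKO), 1.37 ± 0.04995 (HFD_WT), 2.49 ± 0.098 (HFD_TKO; SD, n = 3).

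In the Sin3 and CoREST complexes, Rcor1, Kdm1a, Sin3b and Rcor3 were each called in at least 1 comparison and Sin3a in none on the CPM scale. Rcor1 (chromosome 12, 111039351 to 111115901), the scaffold of CoREST, was at 25.7, 25.3 and 25.8 CPM for ND_WT, 21.8, 23.7 and 20.3 for ND_TKO, 38.3, 38.9 and 39.4 for HFD_WT and 26.5, 31.1 and 29.3 for HFD_TKO. HFD_WT (38.3 to 39.4 CPM) was highest, HFD_TKO (26.5 to 31.1) lay between, and the Normal Diet groups (20.3 to 25.8) were lowest, with no overlap between the groups. Rcor1 rose with High Fat Diet in WT (log2 change 0.58, SE 0.08, adjusted p = 5.8e-05) and in TKO (log2 change 0.39, SE 0.08, adjusted p = 0.0063), and was lower in TKO on that diet (log2 change -0.41, SE 0.08, adjusted p = 0.0011). Rcor3, its paralog, was measured at 24.4, 29.9 and 20.2 CPM for ND_WT, 19.5, 22.0 and 18.9 for ND_TKO, 21.2, 19.1 and 19.7 for HFD_WT and 22.5, 23.5 and 24.1 for HFD_TKO. WT libraries on High Fat Diet (19.1 to 21.2 CPM) lay below HFD_TKO (22.5 to 24.1), and ND_WT alone ranged from 20.2 to 29.9. Its interaction (0.49, adjusted p = 0.049) was called by all 5 tests and ended in 12 of 21 alternatives, each without a single library, with the replicate block or with no filter. Kdm1a, the LSD1 histone demethylase of CoREST, had levels of 32.5, 38.3 and 35.96 CPM for ND_WT, 31.6, 35.7 and 28.6 for ND_TKO, 45.8, 45.2 and 46.5 for HFD_WT and 32.3, 38.6 and 36.1 for HFD_TKO. HFD_WT (45.2 to 46.5 CPM) lay above all other libraries. It rose with High Fat Diet in WT (0.36, adjusted p = 0.0066; 0.20, adjusted p = 0.053, with TMM scaling) and was lower in TKO on that diet (-0.36, adjusted p = 0.0093).

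Sin3a, the scaffold of the Sin3 complex, stood at 59.2, 64.1 and 45.0 CPM for ND_WT, 39.2, 46.7 and 42.1 for ND_TKO, 49.9, 48.9 and 53.2 for HFD_WT and 34.2, 44.7 and 42.0 for HFD_TKO. On High Fat Diet the WT libraries (48.9 to 53.2 CPM) lay above the TKO libraries (34.2 to 44.7), with a difference of -0.33 (adjusted p = 0.056). On Normal Diet the ranges overlapped through ND_WT replicate 3 (45.0 CPM), with a difference of -0.38 (adjusted p = 0.12). Without that library both were called (-0.33, adjusted p = 0.017, and -0.52, adjusted p = 0.013). Sin3b, its paralog, fell in TKO on High Fat Diet from a mean of 64.4 to 54.8 CPM (-0.23, adjusted p = 0.0076), and with TMM scaling the difference was -0.10 (adjusted p = 0.23).

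NuRD joins deacetylases to the remodelling motor Chd4. Chd4 was at 224, 233 and 179 CPM for ND_WT, 172, 202 and 173 for ND_TKO, 272, 281 and 281 for HFD_WT and 193, 213 and 203 for HFD_TKO. HFD_WT (272 to 281 CPM) lay above all other libraries, and HFD_TKO (193 to 213) lay within the range of the Normal Diet libraries. Chd4 rose with High Fat Diet in WT (log2 change 0.40, SE 0.10, adjusted p = 0.0043) and was lower in TKO on that diet (log2 change -0.45, SE 0.10, adjusted p = 0.0027). The first call missed the threshold with edgeR (0.23, adjusted p = 0.06) and limma-voom (0.24, adjusted p = 0.05). Gatad2a, a p66 subunit that bridges the motor and the deacetylase core, was measured at 47.7, 44.2 and 45.7 CPM for ND_WT, 49.0, 46.2 and 44.8 for ND_TKO, 64.2, 64.8 and 68.8 for HFD_WT and 56.7, 55.4 and 56.1 for HFD_TKO. The diets separated in both genotypes, and HFD_WT (64.2 to 68.8 CPM) lay above HFD_TKO (55.4 to 56.7). It rose with High Fat Diet in WT (log2 change 0.51, SE 0.06, adjusted p = 2.3e-05) and in TKO (log2 change 0.26, SE 0.06, adjusted p = 0.013). The call in TKO ended with TMM scaling (0.18, adjusted p = 0.082), edgeR, limma-voom and DESeq2, and without ND_TKO replicate 3 (0.057). Gatad2a was lower in TKO on High Fat Diet (-0.23, adjusted p = 0.0097), a call that ended with TMM scaling (-0.09, adjusted p = 0.27) and the same 3 tools. Its interaction (-0.25, adjusted p = 0.049) ended in 17 of 21 alternatives. Its paralog Gatad2b was called in no comparison, with means between 46.6 and 55.9 CPM.

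Of the MTA scaffolds of NuRD, Mta3 was lower in TKO on both diets on the CPM scale. Mta3 (chromosome 17, 83706163 to 83821516) had levels of 50.5, 44.2 and 55.4 CPM for ND_WT, 38.1, 38.3 and 36.6 for ND_TKO, 54.4, 52.8 and 50.4 for HFD_WT and 40.3, 42.1 and 44.7 for HFD_TKO. Every TKO library (36.6 to 44.7 CPM) lay below the WT libraries of its diet, and 1 WT library (44.2 CPM, ND_WT replicate 2) lay within the range of HFD_TKO. It fell in TKO on Normal Diet (log2 change -0.40, SE 0.08, adjusted p = 0.017) and on High Fat Diet (log2 change -0.31, SE 0.08, adjusted p = 0.0096). The first call ended in a fit of these 2 groups alone (adjusted p = 0.094) and without ND_WT replicate 1 (0.071) or ND_TKO replicate 3 (0.067). The second ended with TMM scaling (-0.17, adjusted p = 0.1), edgeR (0.095), limma-voom (0.1) and DESeq2 (0.1). Mta1 fell with High Fat Diet in WT from a mean of 55.4 to 40.0 CPM (-0.46, adjusted p = 0.003), with means of 44.3 and 42.7 CPM in the TKO groups. Mta2 rose in that comparison from 81.4 to 95.1 CPM (0.22, adjusted p = 0.024) and was lower in TKO on High Fat Diet, at 75.1 CPM (-0.34, adjusted p = 0.0032). With TMM scaling the diet difference of Mta2 was 0.06 (adjusted p = 0.46), and it was also not called without ND_WT replicate 3 or any 1 of the HFD_WT libraries (adjusted p = 0.055 to 0.075). The histone-binding Rbbp4 fell with High Fat Diet in WT from 168 to 142 CPM (-0.24, adjusted p = 0.038), a call that ended in 5 of 22 alternatives, each without 1 library. Its paralog Rbbp7 was called in no comparison, with means between 113 and 130.1 CPM.

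Across comparisons, 11 of the 35 genes were called in none of the 5 with limma on the CPM scale: Hdac1, Hdac2, Hdac6, Hdac11, Sirt1, Sirt6, Ncor1, Gps2, Sin3a, Gatad2b and Rbbp7. The share of all tested genes called in none was not computed, so the 11 are a list and not a result about the set. Of the 35, an unadjusted p under 0.05 was reached by 12 for TKO on Normal Diet (22.6% of all tested genes), 19 for TKO on High Fat Diet (53.4%), 18 for High Fat Diet in WT (62.6%), 9 for that diet in TKO (35.9%) and 11 for the interaction (39.6%), so an uncalled gene is not shown to be unchanged. A group of 9 (Hdac9, Sirt2, Sirt7, Tbl1xr1, Rcor1, Kdm1a, Mta2, Chd4, Gatad2a) was called higher with High Fat Diet in WT and lower in TKO on that diet (25.7% of all tested genes), and 2 (Sirt3, Sirt5) the reverse (9.59%). The 9 of 35 are at the share of all tested genes. Both comparisons use the HFD_WT libraries, so the 2 directions are not independent. Values of the comparison that leaves these libraries out, High Fat Diet in TKO, ranged for the 9 from -0.08 (Tbl1xr1) to 0.68 (Hdac9). Called in the same direction in all 5 tests (limma on CPM and on TMM-scaled CPM, edgeR, limma-voom and DESeq2) were 3 genes for TKO on Normal Diet (background 4.23%), 11 for TKO on High Fat Diet (38.5%), 12 for High Fat Diet in WT (48.2%), 2 for that diet in TKO (14.5%) and 6 for the interaction (23.8%).

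Other genes of the same machinery were taken from lists drawn up beside the 35. Of 30 further corepressor subunits, 1 was called lower in TKO on Normal Diet (3.54% of all tested genes), 2 higher (15.2%) and 10 lower (31.6%) in TKO on High Fat Diet, 9 higher (37.8%) and 3 lower (20.3%) with High Fat Diet in WT, and 5 higher (16.2%) with that diet in TKO. The 10 of 30 called lower in TKO on High Fat Diet are near the share of all tested genes. Sap30, a Sin3 subunit, stood at 2.29, 2.63 and 1.96 CPM for ND_WT, 2.49, 1.99 and 1.73 for ND_TKO, 8.59, 8.45 and 8.87 for HFD_WT and 3.30, 3.17 and 3.61 for HFD_TKO. HFD_WT was above all other libraries by more than 2 times (8.45 CPM at the lowest, 3.61 at the highest elsewhere). It rose by 1.55 in WT and by 0.51 in TKO on the log2 scale, and differed by -1.15 in TKO on High Fat Diet. Chd3, a second NuRD motor, rose by 1.38 with High Fat Diet in WT and differed by -0.61 in TKO on that diet (adjusted p = 0.0030). Mbd3, a methyl-CpG-binding-like subunit of NuRD, rose in TKO on High Fat Diet (0.59). Mbd2, which binds methylated CG pairs, was the gene called lower on Normal Diet (-0.28). The median changes of this list were -0.15, -0.16, 0.06 and 0.13 in the same order of comparisons, against -0.06, -0.10, 0.13 and 0.07 for all tested genes.

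Histone acetyltransferases and coactivators, which add what deacetylases remove, numbered 16. Of these, 1 was called lower in TKO on Normal Diet (Brpf1, -0.41; 3.54% of all tested genes), 6 lower in TKO on High Fat Diet (31.6%), 5 higher (37.8%) and 2 lower (20.3%) with High Fat Diet in WT, and 1 each way with that diet in TKO (16.2% and 5.9%). Ncoa3, a steroid receptor coactivator, changed by -1.09 on the log2 scale in TKO on High Fat Diet, with means of 78.9 CPM in WT and 36.7 in TKO. Hat1, which acetylates new histone H4, changed by -0.90, with means of 33.6 and 17.5 CPM, and Kat6a, a MYST-family acetyltransferase, by -0.66. Kat2b (PCAF) fell with High Fat Diet in WT (-0.85), and Ncoa1 fell with it in TKO (-0.78). The median changes of this list were -0.15, -0.26, 0.11 and 0.04. Of 17 genes of NAD metabolism, the source of the sirtuins' cosubstrate, 1 was called lower in TKO on Normal Diet (3.54% of all tested genes), 3 higher (15.2%) and 4 lower (31.6%) in TKO on High Fat Diet, 4 higher (37.8%) and 7 lower (20.3%) with High Fat Diet in WT, and 3 higher (16.2%) and 4 lower (5.9%) with that diet in TKO. Bst1, an NAD glycohydrolase, was at 6.29, 7.38 and 4.70 CPM for ND_WT, 3.51, 4.36 and 3.82 for ND_TKO, 18.1, 17.6 and 15.8 for HFD_WT and 4.42, 4.27 and 4.52 for HFD_TKO, with HFD_WT above all others. Qprt, of the route from tryptophan to NAD, rose with High Fat Diet in WT (1.27) and was lower in TKO on that diet (-1.23). Nampt, which makes the precursor of NAD in its salvage route, was singled out after its values were seen. It had means of 244, 249.7, 166 and 206 CPM in ND_WT, ND_TKO, HFD_WT and HFD_TKO, fell with High Fat Diet in WT (-0.55) and was higher in TKO on that diet (0.31, adjusted p = 0.045). Nnmt, which diverts nicotinamide by methylation, rose in TKO on High Fat Diet (0.88), and Nmnat3, a mitochondrial NAD synthase, fell with that diet in TKO (-0.89). The median changes of the NAD list were -0.02, 0.04, -0.23 and -0.08.

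Factors that recruit deacetylase complexes, and kinases that keep class IIa enzymes in the cytoplasm, made a list of 22. In TKO on High Fat Diet 6 were called higher (15.2% of all tested genes) and 5 lower (31.6%), with High Fat Diet in WT 7 higher (37.8%) and 8 lower (20.3%), and with that diet in TKO 4 higher (16.2%) and 2 lower (5.9%). Nr1d1 (REV-ERBα), the clock repressor that brings NCoR and Hdac3 to DNA, was measured at 291, 301 and 214 CPM for ND_WT, 238, 159 and 198 for ND_TKO, 75.4, 76.4 and 82.4 for HFD_WT and 143, 168 and 157 for HFD_TKO. The HFD_WT libraries lay below all others. It changed by -1.75 on the log2 scale with High Fat Diet in WT and was higher in TKO on that diet (0.99). Mef2c, a partner of class IIa enzymes, had levels of 27.7, 26.0 and 24.96 CPM for ND_WT, 20.2, 25.9 and 18.0 for ND_TKO, 74.4, 72.1 and 84.0 for HFD_WT and 26.7, 22.5 and 20.1 for HFD_TKO, with HFD_WT (72.1 to 84.0 CPM) above all others, as for Hdac9. Sik2, the kinase that phosphorylates class IIa enzymes in fat, fell with High Fat Diet in WT (-1.69) and in TKO (-0.73). Bcl6, a repressor that recruits NCoR and CoREST-type complexes, rose in both genotypes (1.63 in WT and 1.41 in TKO). Zbtb16 (PLZF), another such repressor, was higher in TKO on High Fat Diet (0.89), and Rara, a nuclear receptor that binds NCoR, rose with the diet in TKO (0.97). The median changes of this list were -0.16, -0.06, -0.11 and -0.07.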

How the data were processed

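RNA-seq of eWAT was deposited as a table of CPM values per gene, named raw CPM per the file headers, with 12 libraries and 25232 gene entries. Per the submitters' processing notes, STAR 2.7.3a, featureCounts 2.0.0, DESeq2 and mm10 were used. The sources used here do not state which step each served, the annotation release or strand use.

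Values were whole multiples of 1 read for at least 99.9% of entries in each library (tolerance 0.05 reads, offset 0.01 reads), which gave 20973139 to 25606629 reads a library. The 3 entries without a symbol (0.0313% to 0.0679% of reads) were left out. Groups came from the labels. They call the replicates biological and do not say whether each was a single mouse or a pool, so p-values measure the spread between these libraries. No 2 libraries of a group were alike within sampling noise (chi-square per degree of freedom 6.20 to 71.5).

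Differences were tested with limma 3.58.1 (mean-variance trend, R 4.3.3) on log2(CPM + 1), for genes with at least 0.5 CPM in at least 3 libraries. All 12 libraries were in 1 model with a mean per group (8 residual degrees of freedom), with Benjamini-Hochberg adjustment over 15597 genes. On simulated counts of those genes, 43.5% of 1.5-fold and 75.7% of 2-fold changes were recovered for TKO on Normal Diet, and 7 of 15397 unchanged genes were called. Only 62 genes were changed 1.5-fold, 70 were changed 2-fold and 68 4-fold, far fewer than were called on High Fat Diet. Alternatives were pseudocounts of 0.25 and 5, no filter or 1 CPM in 6 libraries, TMM scaling, edgeR 4.0.16, limma-voom and DESeq2 1.42.0 on the recovered reads, only the compared groups, the replicate number as a block, and leaving out each library. A fit of the TKO groups alone with that block, and ratios between paired genes, were added after the data had been seen.

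Same-numbered libraries of ND_TKO and HFD_TKO deviated from their group means together (r = 0.39, 0.56 and 0.12 over genes). Differently numbered libraries of these groups had r between -0.53 and 0.11, so the pair at 0.12 is hardly set apart. This pairing comes from the data, as the labels give only a shared number. In the other comparisons r of same-numbered libraries lay between -0.50 and 0.21, and in none of them were all pairs positive.

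The 35 genes, the related lists and the tests were chosen with earlier results of these data known. All 35 were followed in every comparison. Values in each library are given for the 5 called genes with the largest change in a comparison and for 10 genes whatever their values. Levels between genes are compared per kb of exon (GENCODE vM21, GRCm38).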

Additional observations from a re-analysis of the deposited data

Results flagged for a closer look

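For 7 of the 35 genes the effect of TET knockout differed between the diets by limma's interaction test, as the report describes. On the log2 scale, the difference (High Fat Diet minus Normal Diet) was -0.59 for Tbl1xr1 (adjusted p = 0.0014), 0.64 for Sirt3 (adjusted p = 0.012), 0.59 for Sirt5 (adjusted p = 0.019) and 0.47 for Sirt4 (adjusted p = 0.021). It was 0.46 for Hdac5 (adjusted p = 0.043), 0.49 for Rcor3 (adjusted p = 0.049) and -0.25 for Gatad2a (adjusted p = 0.049). All 7 use the same 12 libraries. Over 21 alternatives the call ended in 17 for Gatad2a, 12 for Rcor3, 11 for Hdac5, 2 for Sirt4 and 1 for Sirt5, and in none for Tbl1xr1 and Sirt3. Groups of 3 libraries are too small for the check of a single far library used for larger groups, so each library was left out in turn instead.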

How the results depend on the processing

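Over every gene of the set, comparison and alternative, 3598 values kept their side of the threshold, 151 lost a call and 101 gained one. No called change turned its direction, while some values that were not called changed sign. Among the alternatives, edgeR and DESeq2 gained the most calls (19 each). Of the 35 genes, 4 were called for TKO on Normal Diet, against 1 when only those groups were fitted and 1 to 7 without single libraries. For High Fat Diet in TKO, 3 were called, against 5 with TMM scaling, limma-voom or DESeq2, 6 with edgeR, and 1 to 5 without single libraries. With the replicate number as a block, the interaction went from 7 to 4 (3 to 7 without single libraries), High Fat Diet in TKO stayed at 3, or 6 with the TKO groups alone, and TKO on Normal Diet went to 3. The block gave 16 for TKO on High Fat Diet and 17 for High Fat Diet in WT, which had 17 each. Both of these ranged from 13 to 19 without single libraries. Over all tested genes, TKO on Normal Diet called 889, against 330 with only those groups, 1395 with DESeq2 and 349 to 1851 without single libraries. High Fat Diet in TKO called 3446, against 1709 without ND_TKO replicate 3 and 2214 without HFD_TKO replicate 3. The causes were not tested. On simulated counts with few changed genes, limma called 43.5% of 1.5-fold changes for TKO on Normal Diet and 45.2% for TKO on High Fat Diet. In that setting 1.5-fold changes were often missed with 3 libraries a group. Benjamini-Hochberg adjustment is stricter where few genes change. As 7288 genes were called for TKO on High Fat Diet, the 45.2% does not give the recovery in that comparison.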
